A study of Mus musculus with 22 samples.

Results

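Creatine kinase, creatine supply and the enzymes that interconvert ATP, ADP and AMP were examined in ischemic gastrocnemius muscle through 9 genes: Ckm, Ckmt2 and Ckb (creatine kinases), Slc6a8, Gamt and Gatm (creatine uptake and synthesis), Ampd1 and Ampd3 (AMP deaminases) and Ak1 (adenylate kinase). They were chosen by name, and every probe annotated with one of these symbols was taken, which gave 12 of 38563 probes and 9 of 18524 named genes. Expression was measured with Illumina MouseWG-6 v2 BeadChips in 22 male, non-diabetic C57BL/6N mice aged 8 to 12 weeks. All of them underwent hindlimb ischemia by removal of the femoral artery, received 12 mg/kg of an LNA oligonucleotide into the peritoneum on day 5, and had the muscle taken on day 7. In 11 mice the oligonucleotide was directed against miR-210 (ANTI-210), and in the other 11 it was a scrambled sequence (SCR). The injection was systemic and the RNA came from the whole muscle, so a level is an average over all cells of the tissue, and fewer cells of a type cannot be told apart from less RNA per cell. No muscle without ischemia and no mouse without an oligonucleotide was among these arrays. The level of miR-210 itself was not analysed here.

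Muscle keeps its ATP level steady during contraction by moving phosphate between creatine and ATP. The mitochondrial isoform Ckmt2 charges creatine where ATP is made, and the cytosolic muscle isoform Ckm returns the phosphate to ADP near the myofibrils. Myoblasts and many other cell types use the brain isoform Ckb, which gives way to Ckm as muscle fibres mature. When ADP accumulates, adenylate kinase joins ADP molecules into ATP and AMP, and AMP deaminase turns the AMP into IMP, the entry to the purine nucleotide cycle. Ampd1 is the isoform of mature skeletal muscle and Ampd3 the one best known from red blood cells. Creatine is made from arginine and glycine by Gatm and then Gamt, largely outside muscle, and enters the fibre through the transporter Slc6a8.

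The agent that separates the groups acts on a mature miRNA, which is shown here with its seed, bases 2 to 8, in capitals. It lies on the minus strand at chr7:141221407-141221428 of GRCm38.p6, the build of the RefSeq tables from which all sequences were taken.
mmu-miR-210-3p: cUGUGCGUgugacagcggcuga
The start-site regions of the 3 creatine kinase genes are shown because the levels of these genes moved together or in opposite directions across mice. Each runs 250 bases before to 50 bases after the start of the gene, written along the strand of the gene. The Ckm region is chr7:19410844-19411143 (plus strand), the Ckmt2 region chr13:91876836-91877135 (minus strand) and the Ckb region chr12:111672289-111672588 (minus strand). Capitals mark matches, on both strands, to the E-box CANNTG, which myogenic factors such as MyoD can bind, to CTANNNNTAG, a looser form of the site of MEF2 factors, whose middle bases are A or T, and to the CCAAT box.
Ckm: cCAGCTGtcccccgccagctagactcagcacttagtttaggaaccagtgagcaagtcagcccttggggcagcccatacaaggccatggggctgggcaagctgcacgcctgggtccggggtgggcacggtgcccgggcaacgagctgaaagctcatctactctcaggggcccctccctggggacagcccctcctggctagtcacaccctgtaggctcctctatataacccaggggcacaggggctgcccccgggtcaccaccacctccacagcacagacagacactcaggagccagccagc
Ckmt2: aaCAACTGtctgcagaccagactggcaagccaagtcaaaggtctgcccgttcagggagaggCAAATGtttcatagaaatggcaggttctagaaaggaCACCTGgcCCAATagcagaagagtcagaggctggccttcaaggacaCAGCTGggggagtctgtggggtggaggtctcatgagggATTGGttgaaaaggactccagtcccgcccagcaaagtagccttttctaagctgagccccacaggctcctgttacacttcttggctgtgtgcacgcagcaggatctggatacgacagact
Ckb: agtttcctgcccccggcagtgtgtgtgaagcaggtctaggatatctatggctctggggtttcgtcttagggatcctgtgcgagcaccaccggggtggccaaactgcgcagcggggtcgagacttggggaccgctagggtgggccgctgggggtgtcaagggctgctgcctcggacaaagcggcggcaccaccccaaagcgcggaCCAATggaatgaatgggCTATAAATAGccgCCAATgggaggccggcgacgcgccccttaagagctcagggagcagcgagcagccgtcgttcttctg
Ckm held 1 E-box in this window (CAGCTG, bases -249 to -244) and Ckmt2 held 4, of which that nearest the start (bases -107 to -102) has the same letters as the Ckm one. The 6 letters of the E-box are common: 72.3% of 32851 mouse promoters of the same length had at least 1. Ckb held the match CTATAAATAG at bases -29 to -20, and 3.69% of promoters had a match to this looser motif. Its middle bases are A or T, and it also holds the letters of a TATA box, at the distance from the start where such boxes usually lie. CCAAT was found at 2 places in Ckb and at 2 in Ckmt2, against at least 1 in 37.4% of promoters. These are matches of letters and not measured binding sites. None of the motifs overlapped another. Of the 9 genes, 7 had an entry in the promoter table; Slc6a8 and Ampd1 are named only.

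On the 22 arrays the values ran from 4.35 to 15.4 on the log2 scale, and the arrays correlated with each other at 0.947 to 0.997. The 12 markers of fast, mature fibres were all measured, with a mean log2 level of 14.58 to 15.01 in ANTI-210 muscles and 14.65 to 15.00 in SCR muscles, so the defining markers of the labelled tissue were present. Most of the variance of all probes, 63.6%, lay along a single axis, principal component 1. The next axis took 7.31% and set replicate numbers 1 to 3 of both groups apart from numbers 4 to 11, with no overlap. The labels and methods do not say what the numbers stand for. The comparisons below are therefore also given within these 2 sets.

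None of the 9 genes passed the test between ANTI-210 and SCR muscles. At an unadjusted p under 0.05 from limma, 0 of 9 genes and 0 of 12 probes passed, against 3.47% of all genes (1 probe a gene) and 3.41% of all probes, and the adjusted p was 1 for each of the 12 (0.00519% of all probes had an adjusted p under 0.05). Of the 9 differences (ANTI-210 minus SCR), 5 were above 0 and 4 below, with a median of 0.03, against a median of -0.0036 over all genes. A missed threshold does not show equal levels, so the interval of each difference is given with it below. All intervals are 95% intervals, and all values are on the log2 scale.

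Ckm, the cytosolic creatine kinase of muscle, was among the brightest signals of the array, with 28 probes brighter. Its lowest, median and highest values were 14.53, 15.06 and 15.16 in ANTI-210 muscles and 14.80, 15.02 and 15.19 in SCR muscles. The groups overlapped, although 2 ANTI-210 mice lay below every SCR mouse. The means were 14.95 ± 0.20 in ANTI-210 and 14.98 ± 0.12 in SCR muscles (SD, n = 11 each), a difference of -0.03 (SE 0.07, interval -0.17 to 0.12, p = 0.682, limma). All 22 values fell within 0.66, a 1.58-fold range.

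Ckmt2, the mitochondrial isoform of striated muscle, ran from 12.63 through a median of 14.69 to 14.92 in ANTI-210 muscles and from 12.53 through 14.86 to 14.93 in SCR muscles. Most mice sat close to the top of this range, and the low values came from both groups: ANTI-210 mouse 11 (12.63) and mouse 3 (13.72), and SCR mice 6 (12.53), 7 (13.18) and 8 (13.91). The means were 14.44 ± 0.71 in ANTI-210 and 14.41 ± 0.83 in SCR muscles (SD, n = 11 each), with a difference of 0.03 (SE 0.32, interval -0.63 to 0.69, p = 0.932, limma). The mice spanned a 5.28-fold range, and the SD of Ckmt2 was larger than that of 94.9% of probes with a mean of at least 6. Its other probe gave the same difference, 0.03, and followed the first across mice (Pearson r = 0.997, Spearman rho = 0.899, n = 22). The permutation p was 1e-05 for both, the smallest that 100000 resamples can give (3e-05 after Bonferroni adjustment over the 3 genes with a pair of probes).

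Ckb, the isoform of immature muscle and many other cells, was high where Ckmt2 was low. Its values were 11.15, 11.60 and 13.30 (lowest, median, highest) in ANTI-210 muscles and 10.62, 11.18 and 13.33 in SCR muscles. The high mice were those low in Ckmt2: ANTI-210 mice 11 (13.30) and 3 (12.52), and SCR mice 6 (13.33), 7 (13.15) and 8 (12.63). The means were 11.81 ± 0.66 in ANTI-210 and 11.60 ± 0.97 in SCR muscles (SD, n = 11 each). The difference, 0.20, was the largest of the 9 genes and had a wide interval (SE 0.34, interval -0.51 to 0.91, p = 0.562, limma). Over all mice Ckb covered a 6.54-fold range.

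The gene of creatine uptake varied little. Slc6a8, the creatine transporter, had values of 11.51, 11.68 and 12.06 (lowest, median, highest) in ANTI-210 muscles and 11.39, 11.61 and 11.91 in SCR muscles. Only ANTI-210 mouse 5 lay above all SCR mice. The difference was 0.07 (SE 0.07, interval -0.07 to 0.21, p = 0.280, limma), between means of 11.72 ± 0.15 in ANTI-210 and 11.64 ± 0.17 in SCR muscles (SD, n = 11 each).

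Gamt, which methylates guanidinoacetate to creatine, varied almost as much as the creatine kinases Ckmt2 and Ckb. It ran from 10.15 through a median of 11.56 to 11.97 in ANTI-210 muscles and from 9.99 through 11.18 to 11.98 in SCR muscles. The groups covered nearly the same range, and the difference was 0.06 (SE 0.26, interval -0.48 to 0.59, p = 0.832, limma), between means of 11.17 ± 0.64 in ANTI-210 and 11.12 ± 0.61 in SCR muscles (SD, n = 11 each). Gatm, which makes guanidinoacetate, was near the floor of the array (a mean under 6). Its values were 4.48, 4.61 and 5.20 in ANTI-210 muscles and 4.46, 4.62 and 5.84 in SCR muscles, with a difference of -0.12 (SE 0.16, interval -0.44 to 0.21, p = 0.469, limma). Its highest values came from SCR mice 6 (5.84) and 7 (5.61), both low in Ckmt2. ANTI-210 mouse 11, also low in Ckmt2, had 5.20.

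Of the AMP deaminases, Ampd1 behaved like a damped Ckmt2 and Ampd3 hardly varied. Ampd1 ran from 13.82 through a median of 14.52 to 14.71 in ANTI-210 muscles and from 13.52 through 14.60 to 14.80 in SCR muscles, and the lowest mice were again SCR 6 (13.52), ANTI-210 11 (13.82) and SCR 7 (13.83). The difference was -0.02 (SE 0.15, interval -0.32 to 0.28, p = 0.887, limma), between means of 14.41 ± 0.30 in ANTI-210 and 14.43 ± 0.40 in SCR muscles (SD, n = 11 each). The other Ampd1 probe gave -0.04 (p = 0.797, limma) and followed the first (Pearson r = 0.977, Spearman rho = 0.951, permutation p = 1e-05 for both, n = 22).

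Ampd3 values were 9.71, 9.81 and 10.05 (lowest, median, highest) in ANTI-210 muscles and 9.51, 9.83 and 10.10 in SCR muscles. The ANTI-210 mice lay inside the range of the SCR mice, and all 22 values fell within 0.59. The means were 9.86 ± 0.11 in ANTI-210 and 9.80 ± 0.20 in SCR muscles (SD, n = 11 each), a difference of 0.06 (SE 0.07, interval -0.08 to 0.20, p = 0.408, limma). The other Ampd3 probe stayed between 4.39 and 4.54, at the floor of the array, and gave no usable second reading (difference 0.03, p = 0.144, limma).

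Ak1, the cytosolic adenylate kinase of muscle, had values of 12.55, 13.59 and 13.88 (lowest, median, highest) in ANTI-210 muscles and 12.55, 13.74 and 13.94 in SCR muscles. The groups shared the same lowest level, reached by ANTI-210 mouse 11 and SCR mouse 6. The means were 13.50 ± 0.36 in ANTI-210 and 13.53 ± 0.47 in SCR muscles (SD, n = 11 each), and the difference was -0.03 (SE 0.17, interval -0.39 to 0.33, p = 0.863, limma).

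**Figure D1:**
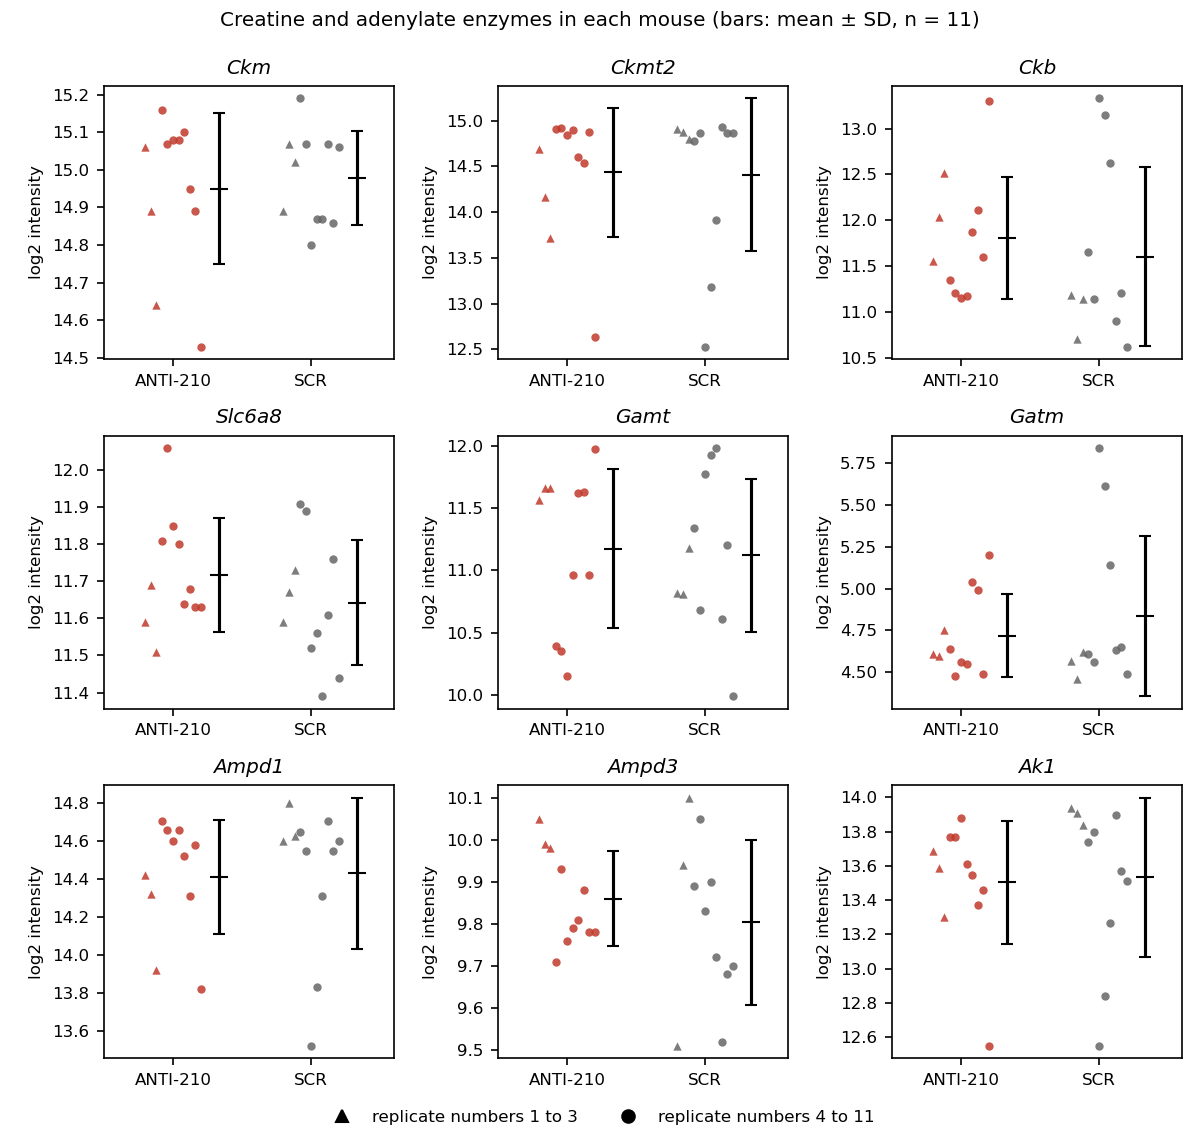
Log2 intensity of the standing probe of each of the 9 genes in 11 ANTI-210 mice (left) and 11 SCR mice (right), 1 point a mouse, with triangles for replicate numbers 1 to 3, circles for numbers 4 to 11 and bars for the mean ± SD. The groups overlap in every panel, and the same few mice lie low in Ckmt2, Ampd1 and Ak1 and high in Ckb.

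Within replicate numbers 1 to 3, 5 of the 9 genes had an unadjusted p under 0.05 in limma and groups that did not overlap. Of these, 2 were higher and 3 lower in ANTI-210 muscles. In this set 29.3% of all probes passed. The groups did not overlap for 33.1% of all probes and 38.1% of all genes (1 probe a gene). These shares are not like for like, because 9696 of the 18524 genes were near the floor, against 1 of the 9 (Gatm). The shares among genes above the floor were not computed. Ckb ranged over 11.55 to 12.52 in ANTI-210 mice and over 10.70 to 11.18 in SCR mice, a difference of 1.03. Gamt was between 11.56 and 11.66 in ANTI-210 mice and between 10.81 and 11.18 in SCR mice, a difference of 0.69, and it alone among the 9 had an adjusted p under 0.05 (0.0229, limma), where 14.2% of all probes did. Ckmt2 was between 13.72 and 14.69 in ANTI-210 mice, against 14.80 to 14.91 in SCR mice, a difference of -0.67. The other 2 lower genes were Ampd1 (-0.46) and Ak1 (-0.37). With 3 mice against 3, the exact permutation test (two-sided) cannot give a p below 0.1, which each of these 5 genes reached.

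Within numbers 4 to 11, with 8 mice against 8, no gene of the 9 passed (0 of 9, against 2.54% of all probes and 0% of them after adjustment). The differences were 0.29 for Ckmt2, -0.11 for Ckb, -0.18 for Gamt, 0.14 for Ampd1 and 0.10 for Ak1, each of the opposite sign to its difference within numbers 1 to 3, with exact permutation p values of 0.527, 0.806, 0.602, 0.453 and 0.689. Slc6a8 (-0.07 within 1 to 3, 0.13 within 4 to 11), Gatm (0.10 and -0.20) and Ckm (-0.13 and 0.01) also changed sign, and Ampd3 did not (0.16 and 0.02). Whether the 2 sets differ in their response was not tested. Cell type markers moved within numbers 1 to 3 as well. The macrophage markers had a mean level of 10.02 to 10.89 in ANTI-210 mice and 9.16 to 9.45 in SCR mice, the fibroblast markers 12.85 to 13.03 in ANTI-210 mice and 11.86 to 12.28 in SCR mice, and the satellite cell and regenerating fibre markers 8.75 to 9.37 in ANTI-210 mice, against 8.12 to 8.44 in SCR mice. Smooth muscle and pericyte markers (8.34 to 8.56 in ANTI-210 and 7.87 to 8.08 in SCR mice) and Schwann cell markers (7.50 to 7.72 in ANTI-210 and 6.91 to 7.25 in SCR mice) were also higher without overlap. Slow fibre markers were lower without overlap, at 10.87 to 11.53 in ANTI-210 and 11.99 to 12.13 in SCR mice. In the other 4 lists, fast fibres among them, the groups overlapped or met. Fast fibre markers lay near the top of the scale (15.4), at 14.74 to 14.95 in ANTI-210 and 14.87 to 14.97 in SCR mice. Overlap in that list therefore does not show equal levels. The part of these cell types in the differences of the 5 genes was not tested.

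**Figure D2:**
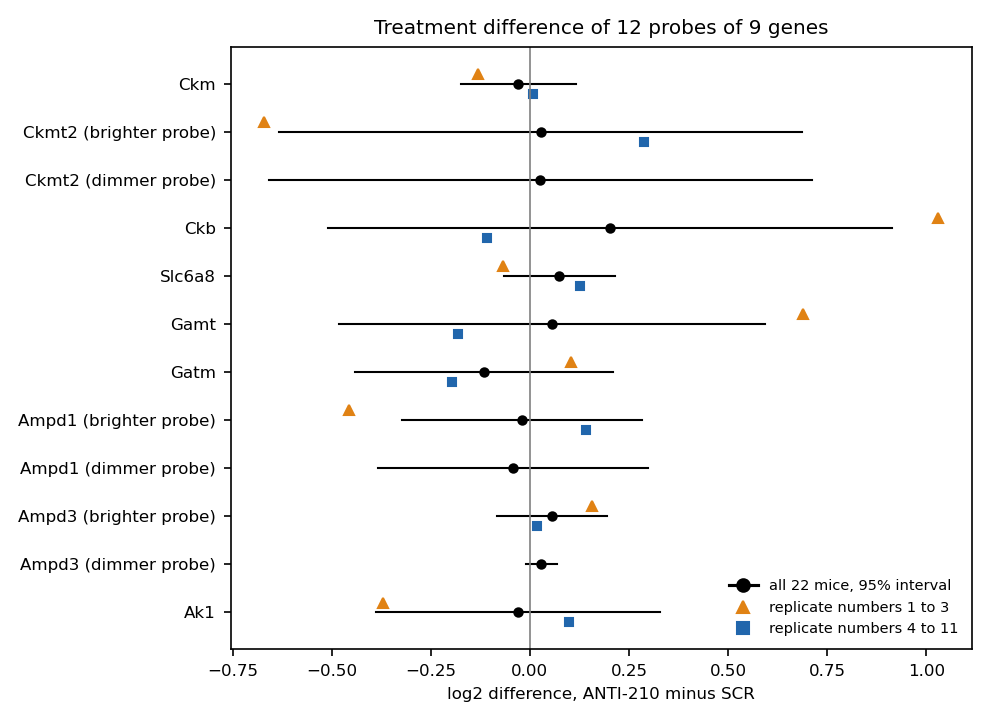
Log2 difference, ANTI-210 minus SCR, of the 12 probes, with black points and lines for the difference over all 22 mice and its 95% interval, and coloured symbols for the standing probe of each gene within replicate numbers 1 to 3 and 4 to 11. Every black interval includes 0, and for Ckmt2, Ckb, Gamt, Ampd1 and Ak1 the 2 sets of numbers lie on opposite sides of 0.

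The mature isoforms were then set against Ckb and Ampd3. For each mouse the mean log2 value of Ckm, Ckmt2 and Ampd1 minus that of Ckb and Ampd3 was taken, each gene relative to its mean over all mice. This balance was -0.07 ± 0.73 in ANTI-210 and 0.07 ± 0.93 in SCR muscles (SD, n = 11 each), a difference of -0.14 that is given as a description. Its lowest, median and highest values were -1.71, 0.09 and 0.57 in ANTI-210 muscles and -1.80, 0.40 and 0.86 in SCR muscles. The mice with the lowest balance were ANTI-210 11 (-1.71) and 3 (-0.99) and SCR 6 (-1.80), 7 (-1.40) and 8 (-0.65), and came from both groups. The highest were SCR 9 (0.86), SCR 11 (0.85), SCR 2 (0.76) and SCR 1 (0.62), above every ANTI-210 mouse. The difference was -1.01 within numbers 1 to 3 and 0.19 within numbers 4 to 11, and without ANTI-210 mouse 11 it was 0.03.

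Across mice most of the genes varied along with each other, as did a large part of the transcriptome. Of the 36 pairs of the 9 genes, 25 correlated at an adjusted permutation p under 0.05, from a size of r of 0.458 (Ckmt2 with Slc6a8) upwards. The share of all genes past this same threshold was not computed, so the count shows nothing particular to these 9 genes. Strong correlations were common on the arrays: among 8827 genes with a mean of at least 6, 55.4% had r of at least 0.7 in size with Ckb, 53.9% with Ampd1, 52.5% with Ckmt2, 49% with Ak1, 46.3% with Gamt and 24.6% with Ckm, against 0.51% with Slc6a8 and 0.113% with Ampd3. Ckm, Ckmt2, Ampd1 and Ak1, the enzymes of mature fibres, varied together, most closely Ckmt2 with Ampd1 (r = 0.960, rho = 0.887) and Ckmt2 with Ak1 (r = 0.938, rho = 0.760). Ampd1 and Ak1 had r = 0.919 and rho = 0.814. The permutation p was 1e-05 for r in these 3 pairs (adjusted over 36 pairs, 5.14e-05), and at most 7e-05 for rho. Ckm joined them less closely, with r = 0.761 to Ckmt2 (rho = 0.570, permutation p = 1.9e-04 and 0.00625, adjusted 4.8e-04 and 0.0112), 0.771 to Ampd1 (rho = 0.746) and 0.733 to Ak1 (rho = 0.626), which passed too. The small spread of Ckm, near the top of the scale, is measured beside this, and its part was not tested.

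Ckb ran against that group. Its r was -0.932 with Ckmt2 (rho = -0.786), -0.925 with Ampd1 (rho = -0.808) and -0.901 with Ak1 (rho = -0.801), each with a permutation p of 1e-05 for r (adjusted 5.14e-05) and at most 6e-05 for rho. Gamt went with Ckb (r = 0.830, rho = 0.869, permutation p = 1e-05 for both, adjusted 5.14e-05 for r and 9e-05 for rho) and against Ckmt2 (r = -0.704, rho = -0.854, permutation p = 1.9e-04 and 1e-05, adjusted 4.8e-04 and 9e-05). Gatm, near the floor, also went with Ckb (r = 0.871, rho = 0.753, permutation p = 2e-05 and 1.7e-04, adjusted 9e-05 and 4.71e-04). A few mice weigh on these values: without the 3 mice lowest in Ckmt2, a choice made after seeing the data, Ckmt2 correlated with Ckb at -0.868, with Ampd1 at 0.90 and with Ak1 at 0.709, and 22 of the 36 pairs passed. Without the 2 mice farthest from the median of the first-named gene of each pair, Ckmt2 correlated with Ckb at -0.909, with Ampd1 at 0.939 and with Ak1 at 0.843, and Ckb with Gamt was 0.825.

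The main relations kept their direction in each group and set. Ckmt2 with Ckb gave r = -0.950 in ANTI-210 mice alone and -0.945 in SCR mice alone, and -0.949 within numbers 1 to 3 and -0.934 within numbers 4 to 11. Ckmt2 with Ampd1 gave 0.937 in ANTI-210 mice, 0.980 in SCR mice, 0.945 within numbers 1 to 3 and 0.974 within numbers 4 to 11. Ckb with Ampd1 gave -0.947 in ANTI-210 mice, -0.921 in SCR mice, -0.981 within numbers 1 to 3 and -0.918 within numbers 4 to 11. Ckb with Gamt gave 0.806 in ANTI-210 mice, 0.881 in SCR mice, 0.873 within numbers 1 to 3 and 0.869 within numbers 4 to 11, although with 6 mice the value within numbers 1 to 3 did not pass (adjusted permutation p = 0.1).

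Ampd3 showed no such relation. Its r with the other 8 genes lay between -0.164 and 0.283, and 0 of these 8 pairs passed (smallest adjusted permutation p 0.251 for r and 0.144 for rho). With Ckb, beside which it was placed in the contrast above, it gave r = 0.139 and rho = 0.118 (permutation p = 0.534 and 0.598, adjusted 0.601 and 0.652). The 22 mice spanned 2.71 in Ckb, against 0.59 in Ampd3. The difference between the correlations of Ampd3 and of Ckb was not tested. Over all mice Slc6a8 was loosely tied to the mature group, with r = 0.491 to Ckm (rho = 0.617, permutation p = 0.0206 and 0.00262, adjusted 0.0344 and 0.00496), and passed in 4 of its 8 pairs. None of these 4 passed in ANTI-210 mice alone (adjusted permutation p 0.0571 to 0.179), SCR mice alone (0.138 to 0.303) or numbers 1 to 3 (0.248 to 0.47). Within numbers 4 to 11 only the pair with Ak1 passed (r = 0.561, adjusted 0.039). With Ckmt2 the rho over all mice did not pass (0.428, adjusted 0.0658).

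**Figure D3:**
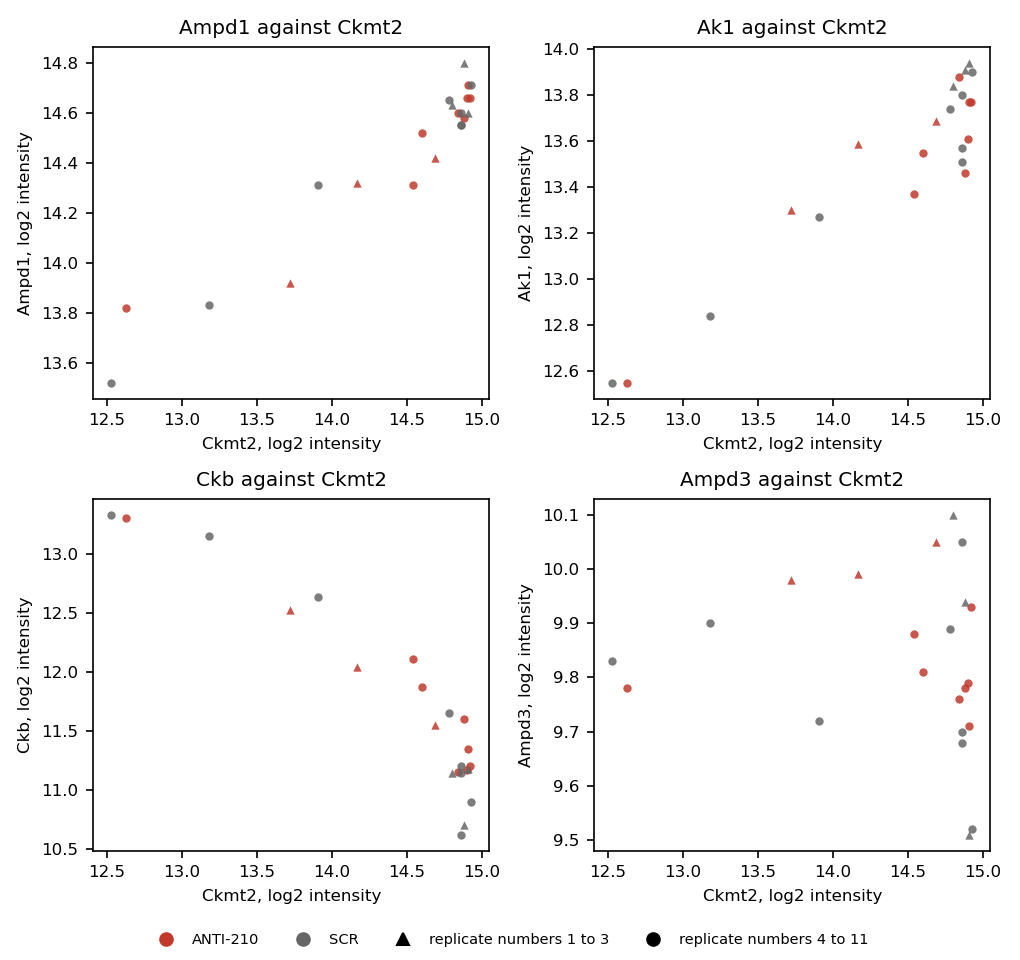
Log2 intensity of Ampd1, Ak1, Ckb and Ampd3 (vertical axes) against that of Ckmt2 (horizontal axes) in each mouse, with ANTI-210 in red, SCR in grey, triangles for replicate numbers 1 to 3 and circles for 4 to 11. Ampd1 and Ak1 rise with Ckmt2 (r = 0.960 and 0.938), Ckb falls with it (r = -0.932) and Ampd3 is spread without a trend (r = -0.108).

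**Figure D4:**
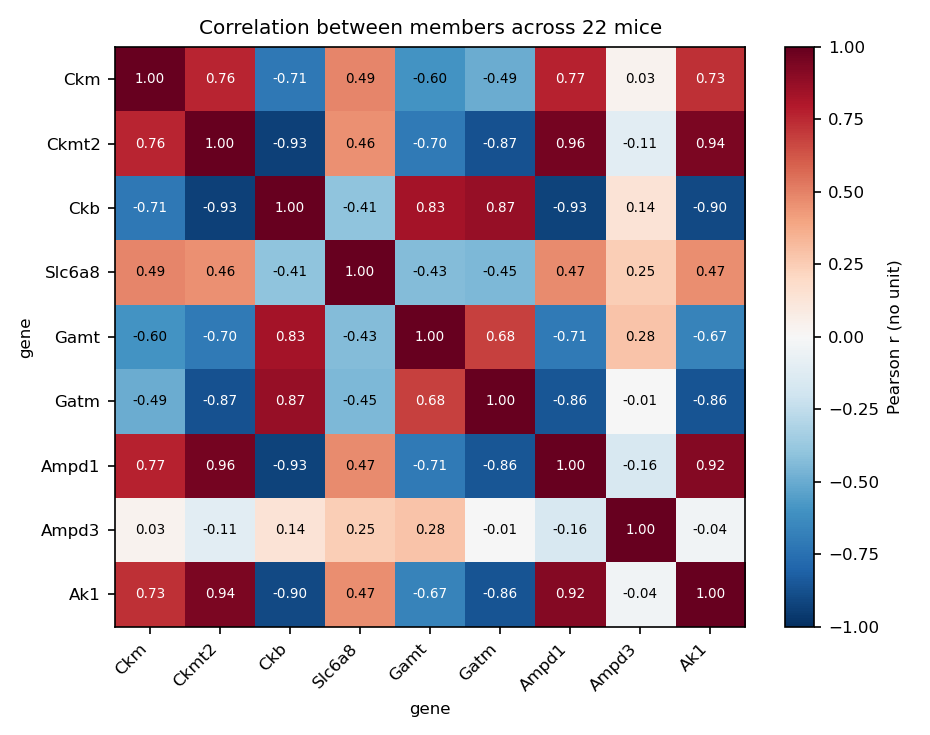
Pearson r between the 9 genes across 22 mice, with red for positive and blue for negative values and the value printed in each cell. Ckm, Ckmt2, Ampd1 and Ak1 are positive with each other and negative with Ckb, Gamt and Gatm, and the row of Ampd3 stays between -0.164 and 0.283.

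This pattern was shared with a large part of the transcriptome. Of 8827 genes with a mean of at least 6, 11.1% had r of at least 0.9 with Ckb, 8.03% with Ckmt2, 9.15% with Ampd1, 4% with Ak1 and 3.02% with Gamt, and none reached it with Ckm, Slc6a8 or Ampd3. The 5 genes most like Ckb over the 22 mice were Pxylp1 (r = 0.981), Fxyd5 (0.980), Tcirg1 (0.979), Plcg2 (0.978) and Tpm1 (0.978). The 5 most like Ckm were Myh4 (r = 0.888), which encodes the fastest myosin heavy chain, Nit1 (0.886), Foxn3 (0.883), Mypn (0.872), which encodes a sarcomere protein, and Gyg (0.872), which encodes the primer of glycogen. These were picked as the highest values and are given as a description with no p. They share the mice and the arrays.

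Markers of other cell types moved with the genes. The mean level of the regenerating list (satellite cells and new fibres, 8 of 9 genes measured, with Pax7 and Myf5 near the floor) was 7.71 to 9.79 in ANTI-210 muscles and 7.46 to 9.84 in SCR muscles. It followed Ckb (r = 0.947, rho = 0.914) and Gamt (r = 0.946, rho = 0.969), with a permutation p of 1e-05 for each and adjusted values, over 90 relations of 9 genes with 10 lists, of 3.46e-05 for r and 1e-04 for rho. Without the 2 farthest mice these r were 0.929 and 0.952. Within the ANTI-210 group r was 0.924 for Ckb and 0.949 for Gamt, and within the SCR group 0.968 for Ckb and 0.953 for Gamt. Within numbers 1 to 3 the r with Ckb was 0.989 and that with Gamt 0.921, and within numbers 4 to 11 they were 0.953 for Ckb and 0.959 for Gamt.

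The macrophage list (8 of 9 measured, Itgam near the floor) had a mean level of 8.80 to 10.89 in ANTI-210 muscles and 8.16 to 10.91 in SCR muscles, and gave r = 0.912 with Ckb (rho = 0.849) and -0.845 with Ckmt2 (rho = -0.798). The fibroblast list (5 of 5 measured) was at 11.72 to 13.03 in ANTI-210 and 11.36 to 12.97 in SCR muscles, and gave r = 0.919 with Gamt (rho = 0.885) and 0.823 with Ckb (rho = 0.754). Fast fibre markers gave r = 0.934 with Ckmt2 (rho = 0.764) and -0.867 with Ckb (rho = -0.715). The permutation p was 1e-05 for r in all 6 of these relations with an adjusted value of 3.46e-05, and at most 2.8e-04 for rho. Without the 2 farthest mice, and within each group and each set of numbers, all 6 kept their sign, with sizes of r no lower than 0.743. The smooth muscle and pericyte list (6 of 6 measured, Cnn1 near the floor), at 8.19 to 8.56 in ANTI-210 and 7.87 to 8.59 in SCR muscles, gave r = 0.832 with Ckb (rho = 0.832) and -0.808 with Ampd1 (rho = -0.782). The slow fibre list (6 of 6 measured), at 10.54 to 13.11 in ANTI-210 and 10.27 to 12.67 in SCR muscles, gave r = 0.849 with Ampd1 (rho = 0.785) and 0.824 with Ckmt2 (rho = 0.749). In these 4 relations the permutation p was 1e-05 for r, with an adjusted value of 3.46e-05, and at most 1.1e-04 for rho, and r kept its sign in each group and set and without the 2 farthest mice, with sizes no lower than 0.734. Among the lists, 0 markers passed the unadjusted threshold between ANTI-210 and SCR muscles outside the endothelial list. In that list 3 of 5 were higher in ANTI-210, where 1.45% of all genes were higher at this threshold. They were Emcn (0.21, p = 0.00526), Cdh5 (0.25, p = 0.00956) and Tek (0.19, p = 0.0487, all limma). Pecam1 (0.14, p = 0.122, limma) and Kdr, near the floor (-0.0073, p = 0.918, limma), did not pass. The part of these cell types in the levels of Ckb, Gamt or Ckmt2 was not tested.

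Ampd3 gave r of -0.194 to 0.451 with the 10 lists, none with an adjusted permutation p under 0.05, although its rho with the fibroblast list passed (rho = 0.538, r = 0.444, permutation p = 0.0106 and 0.0379, adjusted 0.0217 and 0.0710). With the red blood cell list (3 of 4 measured, Slc4a1 near the floor), at 8.10 to 11.04 in ANTI-210 and 8.31 to 10.41 in SCR muscles, Ampd3 gave r = -0.155 and rho = -0.266 (permutation p = 0.490 and 0.231, adjusted 0.572 and 0.336).

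**Figure D5:**
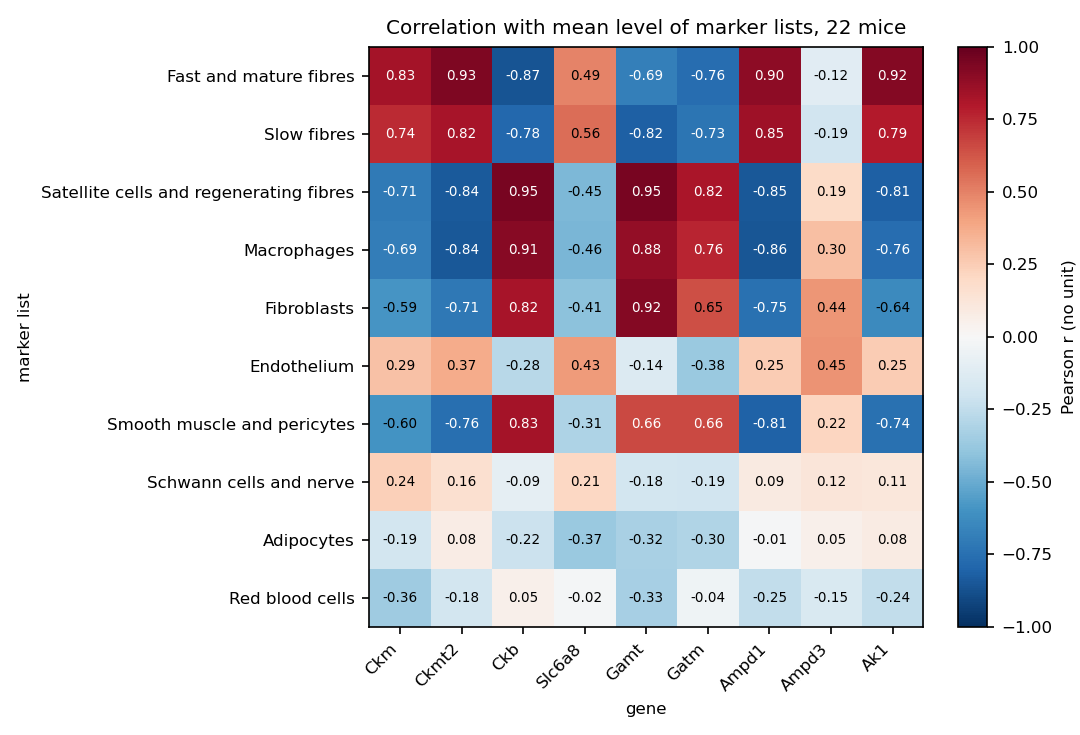
Pearson r across 22 mice between each of the 9 genes (columns) and the mean log2 level of each of 10 marker lists (rows), with red for positive and blue for negative values. Ckb and Gamt are most positive with the regenerating list (0.947 and 0.946), Ckmt2 with the fast fibre list (0.934), and Ampd3 stays between -0.194 and 0.451.

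Other genes of creatine and adenylate metabolism were taken from 5 lists, of which 47 of 49 genes were measured. In ANTI-210 muscles 2 of the 47 were higher and 0 lower at an unadjusted p under 0.05 (1.45% of all genes were higher and 2.01% lower), and their adjusted p was 1. Nt5e, the cell-surface enzyme that makes adenosine from AMP, had values of 6.51, 6.89 and 7.37 (lowest, median, highest) in ANTI-210 muscles and 6.30, 6.67 and 7.03 in SCR muscles. The groups overlapped, and the difference was 0.22 (SE 0.10, p = 0.0408, limma), while a second probe gave 0.15 (p = 0.160, limma). Pnp, which splits purine nucleosides, was near the floor at a mean of 4.82 ± 0.16 in ANTI-210 and 4.69 ± 0.13 in SCR muscles (SD, n = 11 each), a difference of 0.13 (SE 0.06, p = 0.0448, limma). The other Pnp probes, also near the floor, did not pass, with differences of 0.03 (p = 0.47, limma) and 0.04 (p = 0.145, limma). The mean of all Pnp probes passed (0.06, p = 0.0129, limma). Within numbers 1 to 3 the differences were 0.57 for Nt5e and 0.04 for Pnp, and within numbers 4 to 11 they were 0.09 for Nt5e and 0.16 for Pnp. Leaving out 1 mouse ended the call of Nt5e in 10 of 22 cases (SCR 1, 4, 8, 9, 10 and 11, ANTI-210 1, 2, 3 and 11) and that of Pnp in 13 of 22 (SCR 1, 6, 7, 8, 9, 10 and 11, ANTI-210 2, 6, 7, 9, 10 and 11), with p up to 0.0824 for Nt5e and 0.0908 for Pnp. Array weights ended the call of Pnp (0.07, p = 0.241, limma).

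The list of AMP-activated protein kinase, the sensor of rising AMP, held 8 genes with its activator Stk11 among them. Its median difference was -0.12, against -0.0036 over all genes, and 0 passed. Of the 8, 7 were below 0, 0 above and Prkag3 at 0.00, where 9653 of all 18524 genes were below 0. Across mice their r with Ckmt2 ran from -0.853 (Prkab1) to 0.917 (Prkaa2), with Prkag2 at 0.0601. Correlations among the 8 genes were not computed. The 7 signs come from the same mice and cannot be counted as 7 independent readings. The smallest p values were those of Stk11 (-0.16, p = 0.0784), Prkag1 (-0.18, p = 0.1) and Prkaa1 (-0.14, p = 0.268), all from limma. Among the other adenylate kinases, AMP deaminase Ampd2 and the ubiquitous mitochondrial creatine kinase Ckmt1, 0 of 8 passed and 6 were near the floor, with the smallest p for Ak7 (0.04, p = 0.184, limma), Ak6 (-0.02, p = 0.337) and Ak8 (0.06, p = 0.474). In the purine list, after Nt5e and Pnp, Hprt, which salvages hypoxanthine, came next (0.15, p = 0.212, limma). The other 2 enzymes of the purine nucleotide cycle in muscle, adenylosuccinate synthase (Adssl1) and adenylosuccinate lyase (Adsl), had differences of -0.08 (p = 0.635) and -0.14 (p = 0.549, limma) by their brightest probes. A second Adsl probe near the floor (mean 4.95) was lower in ANTI-210 muscles by the unadjusted threshold, with a difference of -0.18 (SE 0.07, p = 0.0189, limma). Adssl1 and Adsl were set against Ampd1 after their values were seen, and both followed it across the 22 mice. Adssl1 gave r = 0.957 (rho = 0.834) and Adsl r = 0.959 (rho = 0.870), with a permutation p of 1e-05 before and after adjustment over both. This adjustment does not cover the choice of these genes from the lists. Such values were common: 9.15% of 8827 genes with a mean of at least 6 had r of at least 0.9 with Ampd1. The relation is therefore not particular to the cycle. Without the 2 mice farthest in Ampd1, r was 0.945 for Adssl1 and 0.922 for Adsl, and in each group and set of numbers it was between 0.962 and 0.983.

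Of the 7 genes of ATP and ADP exchange, 0 passed, and the smallest p values were those of the ATP synthase subunit Atp5b (-0.03, p = 0.313, limma), the channel Vdac2 (-0.08, p = 0.365) and the carrier Slc25a5 (0.13, p = 0.507). Among the 9 measured genes that supply arginine, glycine and methyl groups, 0 passed, with Ahcy (-0.07, p = 0.249, limma), Asl (0.16, p = 0.309) and Shmt2 (-0.09, p = 0.367) first.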

How the data were processed

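Total RNA of the ischemic gastrocnemius of 22 mice, 1 array a mouse, was labelled from 200 ng and hybridised to Illumina BeadChips. Bead summaries came from GenomeStudio, and the authors applied quantile normalization and, with beadarray, filters on expression and probe quality, and deposited 1 value per probe and array on a log scale. These deposited values were taken as log2 because they run from 4.35 to 15.4; the sources used here name neither the base nor software versions and filter thresholds. The table has 0 further value columns. Detection p-values were not used, so a mean under 6 was called near the floor.

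Differences are ANTI-210 minus SCR, fitted over all 38563 probes with limma 3.58.1 (lmFit and eBayes, two-sided) in R 4.3.3, with the unadjusted threshold of 0.05 that the methods state and Benjamini-Hochberg adjustment over all probes beside it. The probe with the highest mean stood for its gene. Gene names come from the platform annotation (32093 probes with 1 symbol, 16 with several, 6454 with none). Correlations across mice used 100000 permutations (scipy 1.17.1, Python 3.11.15) and Benjamini-Hochberg adjustment, or Bonferroni adjustment for pairs of probes of the same gene. Within each set of replicate numbers, ANTI-210 and SCR mice were compared with exact permutation tests.

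Genes named are all 9 members with every probe, from each pathway list those past the threshold and the 3 with the smallest p, and the 5 genes most correlated with Ckm and with Ckb. The members and lists were chosen with earlier results of these data known. Alternatives were median centring, cyclic loess, trend and robust eBayes, array weights, a filter on dim probes, averaging the probes of a gene, a replicate block, the methods' t-test, each mouse left out, and the 2 sets of replicate numbers. The scripts were tested on simulated data. The sources used here do not tell which mice were on the same chip, and the number of arrays limits the precision.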

Additional observations from a re-analysis of the deposited data

How the results depend on the processing

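The count of 0 members past the threshold held under every alternative run except within replicate numbers 1 to 3. There it was 5 of 9, where 29.3% of all probes passed. The pathway count of 2 of 47 became 1 with median centring, with trend and robust eBayes, with the filter on dim probes, with the mean of all probes and within numbers 4 to 11. With array weights it was 6 of 47 (without Pnp), where 1757 of all 38563 probes were higher and 1871 lower. Within numbers 1 to 3 it was 26 of 47 (13 higher, 13 lower), where 29.3% of all probes, most of them near the floor, passed. These counts show nothing particular to the pathway genes. Leaving out single mice gave 0 to 2 pathway genes, with 0 without SCR mice 1, 9, 10 or 11 or ANTI-210 mice 2 or 11. Nt5e lost its call with trend and robust eBayes (p = 0.0535), probe averaging (p = 0.0557) and within numbers 4 to 11 (p = 0.336, all limma), and Pnp with median centring (p = 0.0609), array weights (p = 0.241) and within numbers 1 to 3 (p = 0.719). With array weights 1757 probes were higher and 1871 lower among all probes, against 567 higher and 749 lower without them; median centring gave 427 higher and 971 lower, and within numbers 1 to 3 there were 5573 higher and 5710 lower.

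Differences of the members reversed in sign as follows. Within numbers 4 to 11 they were 0.0088 for Ckm, -0.11 for Ckb, -0.18 for Gamt, 0.14 for Ampd1 and 0.10 for Ak1. Within numbers 1 to 3 they were -0.67 for Ckmt2, -0.0667 for Slc6a8 and 0.10 for Gatm. Array weights gave -0.15 for Ckmt2 and 0.0265 for Gatm. The filter on dim probes left Gatm and Pnp without a value. Leaving out single mice gave -0.0501 to 0.0129 for Ckm, -0.16 to 0.21 for Ckmt2, -0.0574 to 0.16 for Gamt, -0.11 to 0.0382 for Ampd1 and -0.13 to 0.0654 for Ak1, and the balance of mature isoforms ran from -0.32 (without SCR mouse 6) to 0.03. None of these passed the threshold, other than Ckmt2 within numbers 1 to 3; the cause was not tested. Of the 36 pairs of members, 6 rather than 25 passed within numbers 1 to 3, which hold 6 mice.

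The replicate numbers were checked for pairing: the deviations of same-numbered mice correlated at -0.758 to 0.765, over 0.1 for 4 of 11 numbers. Principal component 1, with 63.6% of the variance, weighs on these values, so the check cannot exclude pairing. The labels name no pairs, and same-numbered mice were not taken as pairs in the main fit. Numbers 1 to 3 of both groups stand apart from the others as a set. With the replicate block 0 members and 2 pathway genes passed, and 526 probes were higher and 779 lower at the threshold. The difference of Ckb (0.20) and the balance (-0.14) were the same as without the block. This was fixed in advance, because each number holds a mouse of each group, so the block can change only the errors and p values.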
